A study of Homo sapiens with 6 samples.

Results

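The insulin-like growth factor (IGF) system was followed in RNA from AF22, an established human line of neuroepithelial-like neural stem cells made from induced pluripotent stem cells. The genes were taken by symbol: the ligands IGF1 and IGF2, the receptors IGF1R and IGF2R, and the binding proteins IGFBP2 to IGFBP7. All 10 symbols were among the 26485 in each count table, and 8 of the 10 passed the filter on low counts. The knockdown group, 3 libraries, carried a knockdown of COMMD3 and COMMD3-BMI1, a readthrough gene that joins COMMD3 to its neighbour BMI1; what agent lowered them is not in the labels. The control group, 3 libraries, carried a control short hairpin RNA (shControl) and is labelled as wild type. The labels do not give separate cultures for the replicates, so a p-value covers no more than the spread among 3 libraries a group of 1 line, and that spread may be technical.

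IGF1 and IGF2 are secreted peptides that act through IGF1R, a receptor tyrosine kinase that signals through IRS and SHC adaptors to the PI3K-AKT-mTOR and MAPK pathways and promotes growth and survival of neural progenitors. IGF2R, also the cation-independent mannose 6-phosphate receptor, has no kinase domain and carries IGF2 and lysosomal enzymes to lysosomes. The binding proteins hold the ligands outside the cell, and proteases such as PAPPA, which cuts IGFBP4, set them free.

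The libraries held between 7294687 and 11579849 counts. COMMD3 had 12.9, 11.3 and 10.5 CPM (counts scaled to the library total and by TMM) in the knockdown libraries, against 31.7, 29.7 and 27.6 CPM in the control libraries. The log2 fold change was −1.37 with an SE of 0.0996 (edgeR, adjusted p = 2.34e-12). BMI1 averaged 104.8 ± 1.79 CPM in knockdown cells and 110.2 ± 2.41 CPM in control cells (SD, n = 3 each; edgeR adjusted p = 0.206), and COMMD3-BMI1 was listed at 0 in all 6 libraries. How reads of exons that it shares with COMMD3 or BMI1 were assigned is not given. These counts therefore show neither its presence nor its knockdown, and do not tell it from COMMD3. Of 15 neural stem cell markers, 14 were tested, 1 was called higher (MSI1) and 5 lower (SOX2, SOX9, HES1, PROM1 and ZBTB16), and HES5 was at 0. Over all tested genes, 15.3% were called higher and 18.1% lower. The summed levels of the 15 markers overlapped, at 3107 to 3203 CPM in the knockdown libraries and 3114 to 3301 CPM in the control libraries. VIM and NES, neither of them called, were the largest parts of these sums. VIM averaged 1187 CPM in knockdown cells and 1150 CPM in control cells, and NES 703.4 and 659.5 CPM. The median log2 fold change over the 14 tested markers was −0.145. SOX2 lay between 252 and 268.4 CPM in knockdown cells and between 280.7 and 293 CPM in control cells (log2 fold change −0.15, edgeR adjusted p = 0.00909). Its adjusted p was 0.0579 without control replicate 2 and 0.0562 without knockdown replicate 3. MSI1 lost its call with DESeq2 (adjusted p = 0.0928) and when any library but knockdown replicate 3 was left out (edgeR adjusted p between 0.0517 and 0.23).

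Of the 8 tested genes of the system, 5 (62.5%) passed the edgeR test at an adjusted p under 0.05, against 33.3% of all 13632 tested genes. IGFBP4, IGFBP5 and IGF1R were lower in knockdown cells, where 18.1% of all tested genes were called lower. IGFBP2 and IGF2R were higher, where 15.3% of all tested genes were called higher. The groups did not overlap for 4 of the 8, all of the called genes but IGF2R, against 44.3% of all tested genes. The changes were modest, and only IGFBP4 exceeded 1.5-fold. The edgeR test against a threshold of 1.5-fold called 0 of the 8, with 1 at an unadjusted p under 0.05, and 164 genes in all; no other tool was run with that threshold. The median log2 fold change was −0.08 over the 8 genes and 0.002 over all tested genes.

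**Figure D1:**
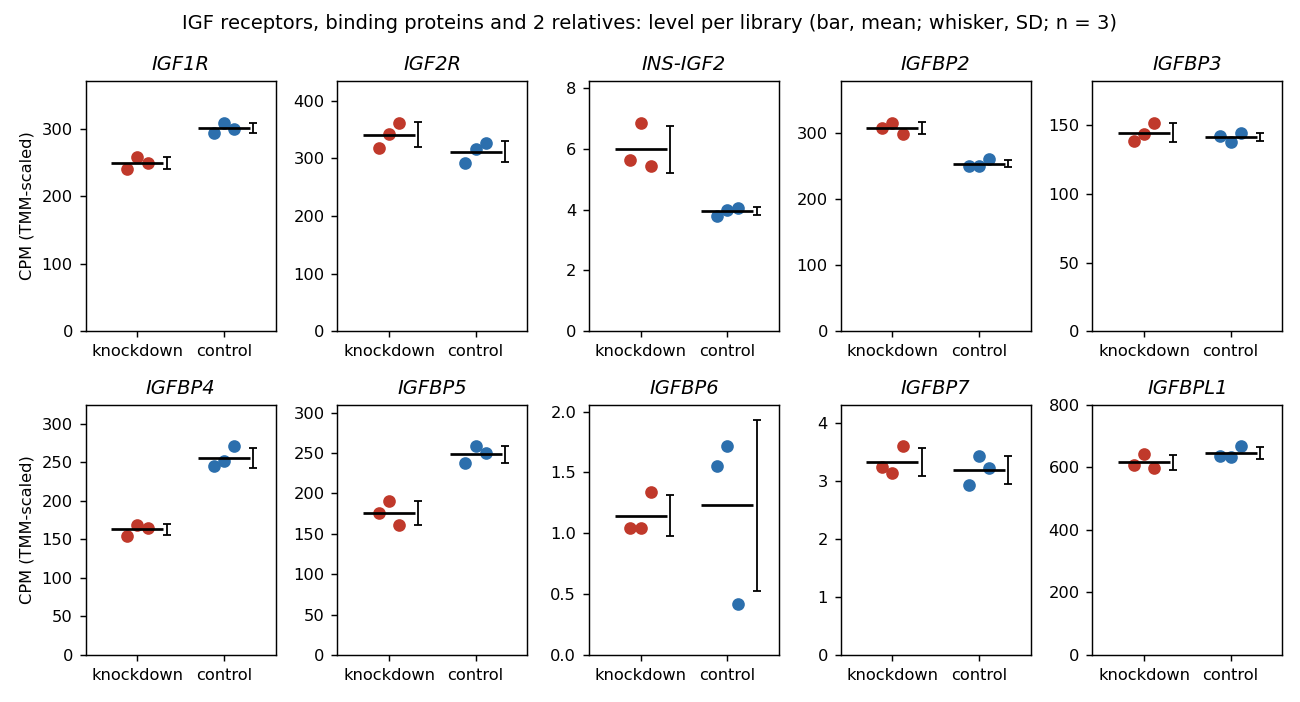
CPM of each gene of the system that passed the filter, and of the relatives INS-IGF2 and IGFBPL1, by library (knockdown points left of control points, bars at the group means). The groups are apart for IGFBP4, IGFBP5, IGF1R, IGFBP2 and INS-IGF2, and they overlap for IGF2R, IGFBP3, IGFBP6, IGFBP7 and IGFBPL1.

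Few or no reads were assigned to the symbols of the ligands. IGF1, on chromosome 12 (chr12:102395874-102481744, minus strand, GRCh38 with GENCODE v29 genes), had 0 counts in all 6 libraries. At 3 counts as the floor, this allows up to 0.309 to 0.349 CPM in the knockdown libraries and 0.259 to 0.42 CPM in the control libraries. Of the 8122 exon bases of IGF1, 6693 (82.4%) overlap HELLPAR on the opposite strand. How reads of such bases were assigned is not given, so neither the 0 nor this limit is firm for that stretch. IGF2 (chr11:2129112-2158658, minus strand) had 1, 0 and 0 counts in the knockdown libraries and 0, 1 and 2 counts in the control libraries, all at or under the floor, so no fold is given. INS, the insulin gene beside IGF2, and the imprinted neighbour H19 had 0 counts in all 6 libraries.

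Reads at this locus were instead assigned to INS-IGF2 (chr11:2132538-2161209, minus strand), a readthrough gene of INS and IGF2. Its counts were 54, 59 and 53 in the knockdown libraries and 44, 35 and 29 in the control libraries. The corresponding levels were 5.65, 6.87 and 5.45 CPM in knockdown cells, all above the 3.799, 3.999 and 4.063 CPM in control cells. The log2 fold change was 0.60 ± 0.177 (SE; 95% interval 0.236 to 0.96; edgeR adjusted p = 0.00959). The call was lost with DESeq2 (adjusted p = 0.0682) and without knockdown replicate 2 (log2 fold change 0.50, edgeR adjusted p = 0.0655). Of its 1826 exon bases in GENCODE v29, 1580 (86.5%) are also exon of IGF2 on the same strand and the other 246 are exon of INS. The annotation used in the counting, and how reads of shared bases were assigned, are not given. The counts therefore do not tell transcripts of IGF2 from the readthrough.

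The signalling receptor IGF1R (chr15:98648539-98964530, plus strand) fell in knockdown cells. It had 240.1, 258.6 and 248.8 CPM in the knockdown libraries, against 294, 309.1 and 299.3 CPM in the control libraries. Every knockdown library lay below every control library. The log2 fold change was −0.27 ± 0.0438 (SE; 95% interval −0.361 to −0.182; edgeR adjusted p = 1.33e-05), a decrease of 17.2%. In bulk RNA, fewer cells of a type and less RNA per cell cannot be told apart, here or for any gene below.

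IGF2R (chr6:159969099-160113507, plus strand), which clears IGF2, had 318, 343 and 361.8 CPM in the knockdown libraries and 292.6, 315.6 and 327.4 CPM in the control libraries. The groups overlapped, since knockdown replicate 1 lay within the control range. Its rise was 0.13 ± 0.0492 on the log2 scale (SE; 95% interval 0.031 to 0.232; edgeR adjusted p = 0.0387). It was not called by DESeq2 (adjusted p = 0.0746). It also lost its edgeR call when control replicate 1 (log2 change 0.09, adjusted p = 0.244) or control replicate 2 (0.14, with 0.07) was left out, and when knockdown replicate 2 (0.13, with 0.111) or knockdown replicate 3 (0.09, with 0.205) was. The insulin receptor INSR, which can pair with IGF1R into hybrid receptors, was not called, with 39.3 ± 3.87 CPM in knockdown cells and 41.5 ± 2.01 CPM in control cells (edgeR adjusted p = 0.403).

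The binding proteins moved in both directions. IGFBP4, which holds IGFs away from IGF1R until it is cut, fell the most. Its promoter sequence and those of IGFBP5 and IGFBP2 are shown because these were the 3 binding proteins that changed. Each runs from 250 bases before the start of transcription to 50 bases after it (RefSeq, GRCh38.p14): IGFBP4 at chr17:40443200-40443499 on the plus strand, IGFBP5 at chr2:216695500-216695799 on the minus strand and IGFBP2 at chr2:216633170-216633469 on the plus strand, 1 of 3 starts that RefSeq lists for it. Capitals mark a TATA box (TATAAA) or a GC box (GGGCGG, printed as its reverse complement where it lies on the other strand).
IGFBP4: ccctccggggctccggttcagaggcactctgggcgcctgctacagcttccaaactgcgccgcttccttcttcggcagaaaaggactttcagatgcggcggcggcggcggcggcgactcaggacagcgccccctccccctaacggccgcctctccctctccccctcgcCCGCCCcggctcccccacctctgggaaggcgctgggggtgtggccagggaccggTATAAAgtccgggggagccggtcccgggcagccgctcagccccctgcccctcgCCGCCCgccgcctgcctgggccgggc
IGFBP5: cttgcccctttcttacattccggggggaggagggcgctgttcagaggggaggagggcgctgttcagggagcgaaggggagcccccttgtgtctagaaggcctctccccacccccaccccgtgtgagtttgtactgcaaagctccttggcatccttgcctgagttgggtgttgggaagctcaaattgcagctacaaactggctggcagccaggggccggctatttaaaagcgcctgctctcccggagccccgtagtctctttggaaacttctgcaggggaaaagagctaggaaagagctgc
IGFBP2: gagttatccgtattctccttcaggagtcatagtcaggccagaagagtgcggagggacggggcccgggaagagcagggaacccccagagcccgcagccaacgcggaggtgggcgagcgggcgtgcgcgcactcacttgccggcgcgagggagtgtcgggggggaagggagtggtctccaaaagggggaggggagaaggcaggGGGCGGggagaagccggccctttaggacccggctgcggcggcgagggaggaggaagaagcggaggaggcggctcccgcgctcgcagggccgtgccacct
Letters were searched on both strands, and no matches in these windows share letters. The IGFBP4 window holds 1 TATA box at −29 and 2 GC boxes, the IGFBP2 window holds 1 GC box at −49, and the IGFBP5 window matches neither motif. Of 35116 RefSeq promoter windows of the same length, 11.5% hold TATAAA and 45% hold the GC box. The E-box CACGTG is in none of these 3 windows and in 7.26% of all. Among the windows of the 8 genes matched in RefSeq, only that of IGF2R (chr6:159968832-159969131, plus strand) holds CACGTG, with 3 copies. Of all windows, 33 (0.094%) hold 3 or more. The IGF2R window also holds 6 GC box matches, some sharing letters, and 15.8% of all windows hold 3 or more of these. It is named because of its copies, so their rarity is no test. These matches describe the sequences only.

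IGFBP4 (chr17:40443461-40457731, plus strand) had 154.7, 168.1 and 165.1 CPM in the knockdown libraries, against 245.1, 252 and 270.3 CPM in the control libraries. All knockdown values were below all control values by a wide margin. The log2 fold change was −0.65 ± 0.0466 (SE; 95% interval −0.746 to −0.556; edgeR adjusted p = 1.67e-12), a decrease of 36.3%. By size it ranked 264th among the 2461 genes called lower.

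IGFBP5 (chr2:216672105-216695525, minus strand), which binds matrix as well as IGFs, also fell. It had 175.2, 191.1 and 160.8 CPM in the knockdown libraries, against 237.2, 258.2 and 249.7 CPM in the control libraries, with no overlap. The log2 fold change was −0.50 ± 0.0509 (SE; 95% interval −0.603 to −0.396; edgeR adjusted p = 4.15e-09), a decrease of 29.3%. IGFBP5 shares 298 of its 6442 exon bases with AC007563.2 on the opposite strand, and the strand setting of the counting is not given.

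IGFBP2 (chr2:216632828-216664436, plus strand), abundant in neural progenitors, lies 7668 bases from IGFBP5 and is transcribed towards it, and it moved the other way. It had 308, 315.9 and 298.1 CPM in the knockdown libraries, against 250.6, 250.9 and 260.5 CPM in the control libraries. Every knockdown library was above every control library. The log2 fold change was 0.28 ± 0.043 (SE; 95% interval 0.188 to 0.364; edgeR adjusted p = 8.34e-06), an increase of 21.1%.

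The other binding proteins were not called. IGFBP3 (chr7:45912245-45921874, minus strand), the main carrier of IGFs in blood, had 138.7, 143.3 and 151.8 CPM in knockdown cells and 141.9, 137.9 and 144.3 CPM in control cells. Its log2 fold change was 0.03 (95% interval −0.059 to 0.126; edgeR adjusted p = 0.603). Its neighbour IGFBP1, 18576 bases away, had 0 counts in all 6 libraries.

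IGFBP7 (chr4:57030773-57110385, minus strand), a matrix protein with low affinity for IGFs, averaged 3.33 ± 0.24 CPM in knockdown cells and 3.20 ± 0.248 CPM in control cells (SD, n = 3 each). Its log2 fold change was 0.07 (95% interval −0.352 to 0.5; edgeR adjusted p = 0.82), and 270 of its 1930 exon bases overlap POLR2B on the opposite strand. IGFBP6 (chr12:53097436-53102345, plus strand), which prefers IGF2, had 10, 9 and 13 counts in the knockdown libraries and 18, 15 and 3 counts in the control libraries. The low value was control replicate 3, and the interval of the log2 fold change, −0.944 to 0.573, left its direction unresolved at this depth (edgeR adjusted p = 0.738). IGFBPL1, a relative outside the named family, had the highest level of these genes, 616.3 ± 24.4 CPM in knockdown cells and 645.5 ± 18.7 CPM in control cells, and was not called (edgeR adjusted p = 0.266).

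**Figure D2:**
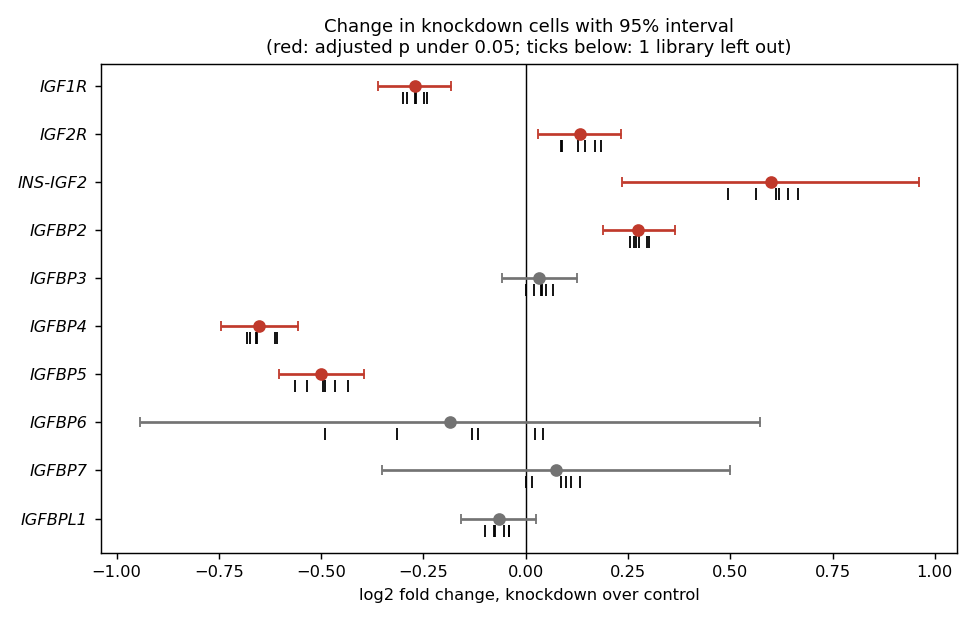
Log2 fold change (knockdown over control) of each tested gene of the system and of the relatives INS-IGF2 and IGFBPL1, with 95% intervals. Ticks below each point show the values with 1 library left out. The intervals of IGFBP4, IGFBP5 and IGF1R lie below 0, and those of IGFBP2, IGF2R and INS-IGF2 lie above 0. Those of IGFBP3, IGFBP6, IGFBP7 and IGFBPL1 cross it.

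Dividing CPM by the merged exon length of each gene puts the levels of different genes on a common scale, CPM per kilobase. In knockdown cells the order was IGFBP4 (73.9 ± 3.2), IGFBP2 (64.5 ± 1.87), IGFBP3 (31.6 ± 1.45), IGFBP5 (27.3 ± 2.35), IGF2R (19.1 ± 1.23), IGF1R (17.9 ± 0.664), IGFBP7 (1.73 ± 0.124) and IGFBP6 (0.850 ± 0.124). In control cells it was IGFBP4 (116.3 ± 5.92), IGFBP2 (53.3 ± 1.18), IGFBP5 (38.6 ± 1.64), IGFBP3 (30.9 ± 0.707), IGF1R (21.6 ± 0.55), IGF2R (17.5 ± 0.992), IGFBP7 (1.66 ± 0.128) and IGFBP6 (0.913 ± 0.524). The 2 receptors stood in opposite order in knockdown and control cells, with merged exons and with the longest transcript as the length. IGFBP3 and IGFBP5 did so with merged exons only. In knockdown cells the receptors' ranges overlapped with merged exons, at 17.8 to 20.3 CPM per kilobase for IGF2R and 17.2 to 18.6 for IGF1R, and were apart with the longest transcript, at 22.64 to 25.76 for IGF2R and 19.62 to 21.14 for IGF1R. In control cells their ranges were apart with either length. With the longest transcript IGFBP3 came to 59.95 CPM per kilobase in knockdown cells and 58.61 in control cells. It then stood above IGFBP5 in both groups (28.27 in knockdown cells, 39.96 in control cells) and above IGFBP2 (57.54) in control cells.

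The make-up of the binding protein transcripts differed between the groups. IGFBP2 made up 31.5% to 33.1% of the summed CPM per kilobase of IGFBP2 to IGFBP7 in the knockdown libraries, against 21.9% to 22.4% in the control libraries. IGFBP4 made up 36.1% to 37.8% in the knockdown libraries, against 47.5% to 49.2% in the control libraries. IGFBP5 made up 12.6% to 14.4% in the knockdown libraries and 15.5% to 16.7% in the control libraries. The sum itself was 194.9 to 206.1 CPM per kilobase in the knockdown libraries, below the 234.5 to 249.9 of the control libraries. These shares use merged exon lengths, describe transcript levels and carry no test.

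**Figure D3:**
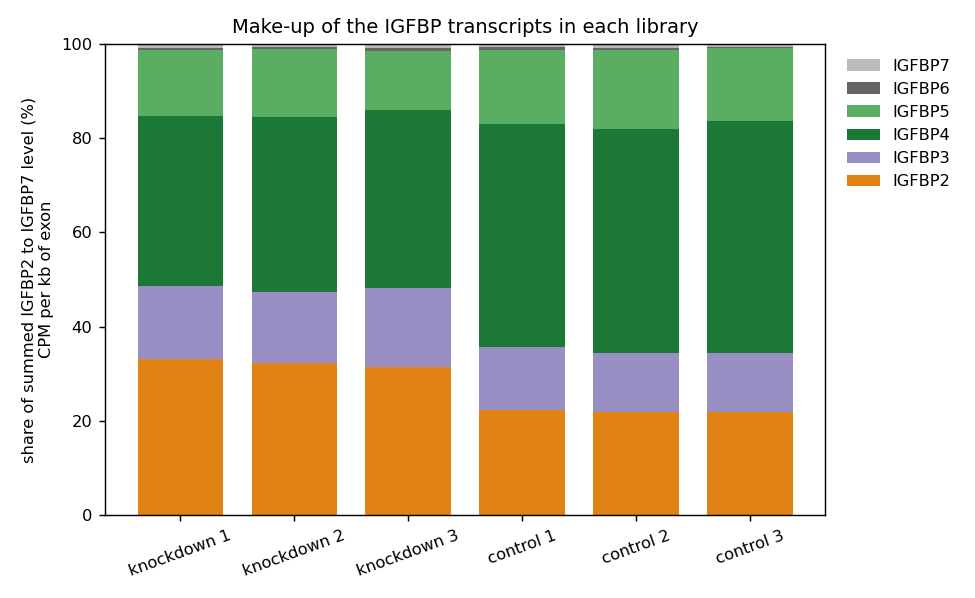
Share of each binding protein in the summed CPM per kilobase of IGFBP2 to IGFBP7, by library, knockdown left and control right. The IGFBP2 share was 31.5% or more in every knockdown library and 22.4% or less in every control library.

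Markers of other cell types were read beside the falls of IGFBP4 and IGFBP5, where 15.3% of all tested genes were called higher and 18.1% lower. Of 8 endothelial markers, 6 were tested and 5 were called lower, with a summed level of 112.1 to 129.9 CPM in the knockdown libraries and 173 to 181.1 CPM in the control libraries. Of 10 mesenchymal markers, all tested, 2 were called higher (COL1A1 and POSTN) and 4 lower (LUM, PDGFRB, TWIST1 and PRRX1). The median log2 fold change over the 10 was 0.012. The sums overlapped, at 1437 to 1490 CPM in the knockdown libraries and 1414 to 1511 CPM in the control libraries. PDGFRB, a pericyte and fibroblast receptor, fell the most of the 10. It averaged 43.2 ± 1.94 CPM in knockdown cells and 76.6 ± 6.18 CPM in control cells (SD, n = 3 each, edgeR adjusted p = 7.68e-12). Of 8 oligodendrocyte lineage markers, 5 were tested and 3 were called lower, with SOX10 at 0 and summed levels of 167 to 177.5 CPM in the knockdown libraries and 198.4 to 211.3 CPM in the control libraries. Of 10 neuron markers, 6 were tested, with 1 called higher (GAP43) and 1 lower (ELAVL3, log2 fold change −0.78), STMN2 and ELAVL4 at 0, and summed levels of 667.3 to 693 CPM in the knockdown libraries and 700.8 to 758.4 CPM in the control libraries. Of 7 astrocyte markers, 4 were tested, with 1 called higher (GJA1) and 1 lower (S100B, log2 fold change −0.62), GFAP at 0, and overlapping sums of 602.1 to 627.5 CPM in the knockdown libraries and 600.6 to 624.8 CPM in the control libraries. GJA1 lost its call without control replicate 1 (edgeR adjusted p = 0.0674) and without knockdown replicate 2 (0.0628). Of 6 pluripotency markers, 3 were tested, with 1 called higher (LIN28A), 1 lower (POU5F1) and DPPA4 not called, and TDGF1 was at 0. NANOG had 2 counts or fewer in each library, and ZFP42 had 1 or fewer. The summed levels of the 6 were 635.1 to 693.2 CPM in the knockdown libraries and 531.3 to 535.5 CPM in the control libraries. LIN28A was the largest part of these sums, at 456.8 ± 25.4 CPM in knockdown cells and 303.6 ± 6.83 CPM in control cells. Of 8 leukocyte markers, 1 was tested and not called. The part of these markers in the results was not tested.

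The word TCATCCA in 3′ untranslated regions (UTRs) was examined because IGFBP4 and IGF1R, both lower in knockdown cells, hold it. It was chosen with earlier results of these data known, so what follows is a description and no independent support. IGFBP4 holds 1 copy, at chr17:40456903-40456931 on the plus strand, and IGF1R holds 2, at chr15:98957980-98958008 and chr15:98960144-98960172 on the plus strand. The windows of 29 bases (GENCODE v29, GRCh38) carry the word in capitals.
IGFBP4 site: cattccttcacTCATCCAgccacctaaaa
IGF1R site 1: agggccatcgtTCATCCAaggctgttacc
IGF1R site 2: tactggtaaccTCATCCAcgccacaggcg
The 3′ UTRs of the other 8 genes of the system hold none, IGFBP5 among them, whose 3′ UTR has 4646 bases. The word was searched on the transcript strand only. Of 12112 tested genes with a 3′ UTR of 50 bases or more, 1695 (14%) hold it. Among these, 623 (36.8%) were called lower and 157 (9.26%) higher, and the median log2 fold change was −0.09. Among the 10417 genes without the word, 1642 (15.8%) were called lower and 1809 (17.4%) higher, with a median of 0.02. The 3′ UTRs that hold the word were longer, with a median of 3301 bases against 1538. In the 7 related lists read below, 8 of 25 genes called lower hold it, NEDD4, PIK3CB, AKT1, PEG10, CD93 and CD99 among them. So do 3 of 21 called higher, ADAM9 and ADAM12 among them, and 6 of 43 not called. Over all 12112 genes, 623 of the 2265 called lower and 157 of the 1966 called higher hold it. The list counts are given beside these and not as a result about the lists.

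The genes whose levels followed IGFBP4 most closely over the 6 libraries, among 11641 genes with a mean of 5 CPM or more, were HK1 (Pearson r = 0.9998), STMN3 (0.9993) and PRDM4 (0.9989). With 6 points in 2 groups that share their libraries, these values describe the likeness and carry no test. HK1, the first enzyme of glycolysis, changed by −0.81 on the log2 scale, STMN3, a regulator of microtubules, by −0.66 and PRDM4, a zinc finger protein, by −0.31.

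Proteases that cut binding proteins, and the inhibitors of those proteases, were read from a list of 12 genes. Of the 9 tested, 5 rose and 2 fell, with a median log2 fold change of 0.14. For this and the lists that follow, the shares over all tested genes were 15.3% higher and 18.1% lower. The stanniocalcins STC1 and STC2, inhibitors of PAPPA, moved apart. STC2 had 65.4, 53.2 and 81.4 CPM in the knockdown libraries, against 41.8, 43.8 and 47.2 CPM in the control libraries (log2 fold change 0.61, edgeR adjusted p = 3.63e-06). STC1 had 16, 13 and 24 counts in the knockdown libraries and 61, 31 and 29 counts in the control libraries (log2 fold change −1.20, edgeR adjusted p = 0.000235). Neither gene's groups overlapped, and STC2 was the more abundant of the pair.

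ADAM9, a membrane metalloprotease, averaged 251.2 ± 10.3 CPM in knockdown cells and 206.4 ± 3.48 CPM in control cells (SD, n = 3 each; log2 fold change 0.28, edgeR adjusted p = 6.71e-06). ADAM12, which cuts IGFBP3 and IGFBP5, averaged 12.1 ± 1.02 CPM in knockdown cells and 8.90 ± 1.17 CPM in control cells (log2 fold change 0.45, edgeR adjusted p = 0.0092), and lost its call with DESeq2 (adjusted p = 0.0542) and without control replicate 1 (edgeR adjusted p = 0.0843). PAPPA, named for its substrate IGFBP4 after its values were seen, had 290.2, 313.9 and 360.6 CPM in the knockdown libraries and 345.8, 348.2 and 382.6 CPM in the control libraries. It was called lower (log2 fold change −0.16, edgeR adjusted p = 0.0322), though knockdown replicate 3 lay above 2 control libraries. The call was lost with DESeq2 (adjusted p = 0.287). The edgeR adjusted p was 0.0505 without control replicate 2 and 0.173 without control replicate 3. It was 0.306 without knockdown replicate 1 (log2 fold change −0.08) and 0.119 without knockdown replicate 2, while the value without knockdown replicate 3 was −0.24 (0.000697).

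Among 16 adaptors and regulators of the receptors, 3 rose, 5 fell and 8 were not called, with a median log2 fold change of −0.04. IRS2, an adaptor that carries the receptor signal to PI3K, rose to 84.4 ± 11.8 CPM in knockdown cells, against 65.2 ± 4.42 CPM in control cells (log2 fold change 0.39, edgeR adjusted p = 5.51e-05). NEDD4, a ubiquitin ligase that acts on IGF1R, fell to 46.3 ± 6.73 CPM in knockdown cells, against 66.6 ± 2.55 CPM in control cells (−0.53, edgeR adjusted p = 7.37e-07). SOCS2, an inhibitor of growth hormone signalling, fell to 13.1 ± 0.919 CPM in knockdown cells, against 19.3 ± 0.8 CPM in control cells (−0.55, edgeR adjusted p = 0.000117). SOS1, the exchange factor that activates RAS, fell to 110.1 ± 2.3 CPM in knockdown cells, against 129.1 ± 2.36 CPM in control cells (−0.23, edgeR adjusted p = 0.000143).

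Of 21 genes of the PI3K-AKT-mTOR core, 2 rose, 8 fell and 11 were not called, with a median log2 fold change of −0.06. The kinase AKT1, which PI3K activates at the membrane, fell to 145.7 ± 2.56 CPM in knockdown cells, against 203.3 ± 10.3 CPM in control cells (−0.48, edgeR adjusted p = 8.97e-10). PIK3CB, a catalytic subunit of PI3K, fell to 36.8 ± 1.7 CPM in knockdown cells, against 52.4 ± 0.49 CPM in control cells (−0.51, edgeR adjusted p = 1.49e-07). PIK3R3, a regulatory subunit of the same enzyme, rose to 200.6 ± 7.52 CPM in knockdown cells, against 155.8 ± 8.64 CPM in control cells (0.36, edgeR adjusted p = 3.4e-07).

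FOXO factors are held out of the nucleus by AKT, and a list of 18 FOXO factors and target genes was read next. Of the 15 tested, 4 rose, 2 fell and 9 were not called, with a median of 0.08. The 6 calls among 15 genes are near the 33.3% over all tested genes, so the genes below are given singly and not as a result about the list. TXNIP, which binds thioredoxin and limits glucose uptake, rose to 46.3 ± 1.31 CPM in knockdown cells, against 33.8 ± 3.69 CPM in control cells (0.44, edgeR adjusted p = 1.46e-05). CITED2, a transcriptional coregulator, rose to 116.9 ± 3.9 CPM in knockdown cells, against 93.8 ± 6.83 CPM in control cells, and CCNG2, an atypical cyclin, rose to 108.8 ± 7.04 CPM in knockdown cells, against 89.7 ± 8.36 CPM in control cells (edgeR adjusted p = 1.07e-05 and 0.000327). FOXO1 itself was called lower (−0.14, edgeR adjusted p = 0.0201). That call was lost with DESeq2 (adjusted p = 0.101), and the edgeR adjusted p came to 0.0955 without control replicate 2, to 0.0696 without control replicate 3 and to 0.104 without knockdown replicate 1.

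IGF2 and H19 belong to the imprinted genes, many of which control growth. Of 9 tested genes on that list, 1 rose, 4 fell and 4 were not called, with a median of −0.09. PLAGL1, a zinc finger factor known in mouse to regulate other imprinted genes, fell to 162.1 ± 3.06 CPM in knockdown cells, against 245.3 ± 16.1 CPM in control cells (−0.59, edgeR adjusted p = 1.53e-11). PEG10, derived from a retrotransposon, fell to 814.1 ± 33.9 CPM in knockdown cells, against 1082 ± 62 CPM in control cells (−0.41, edgeR adjusted p = 6.9e-08). CDKN1C, an inhibitor of the cell cycle, was the 1 that rose, to 41.1 ± 3.01 CPM in knockdown cells, against 31.1 ± 2.59 CPM in control cells (0.42, edgeR adjusted p = 7.03e-05).

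Of 15 matrix proteins and surface proteins listed as partners of the binding proteins, 5 rose, 4 fell and 6 were not called, with a median of 0.04. CD93, a surface receptor for IGFBP7 in endothelial cells, had 17.2, 15.4 and 21.4 CPM in the knockdown libraries, against 38.5, 37.4 and 43.4 CPM in the control libraries (−1.13, edgeR adjusted p = 4.95e-11). CD99, a surface glycoprotein, fell to 139.1 ± 4.59 CPM in knockdown cells, against 214.1 ± 6.27 CPM in control cells (−0.62, edgeR adjusted p = 1.46e-12). CAV1, the scaffold of caveolae, fell and THBS1, a matrix glycoprotein, rose (−0.44 and 0.28, edgeR adjusted p = 4.95e-05 and 9.11e-05). Endothelial markers are given above, and their part in the fall of CD93 was not tested.

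Over the 89 distinct genes tested in these 7 lists, 21 rose and 25 fell, so that 51.7% were called, against 33.3% of all tested genes. Their median log2 fold change was −0.03. The lists were chosen with earlier results of these data known, so the share called describes these genes and carries no test.

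**Figure D4:**
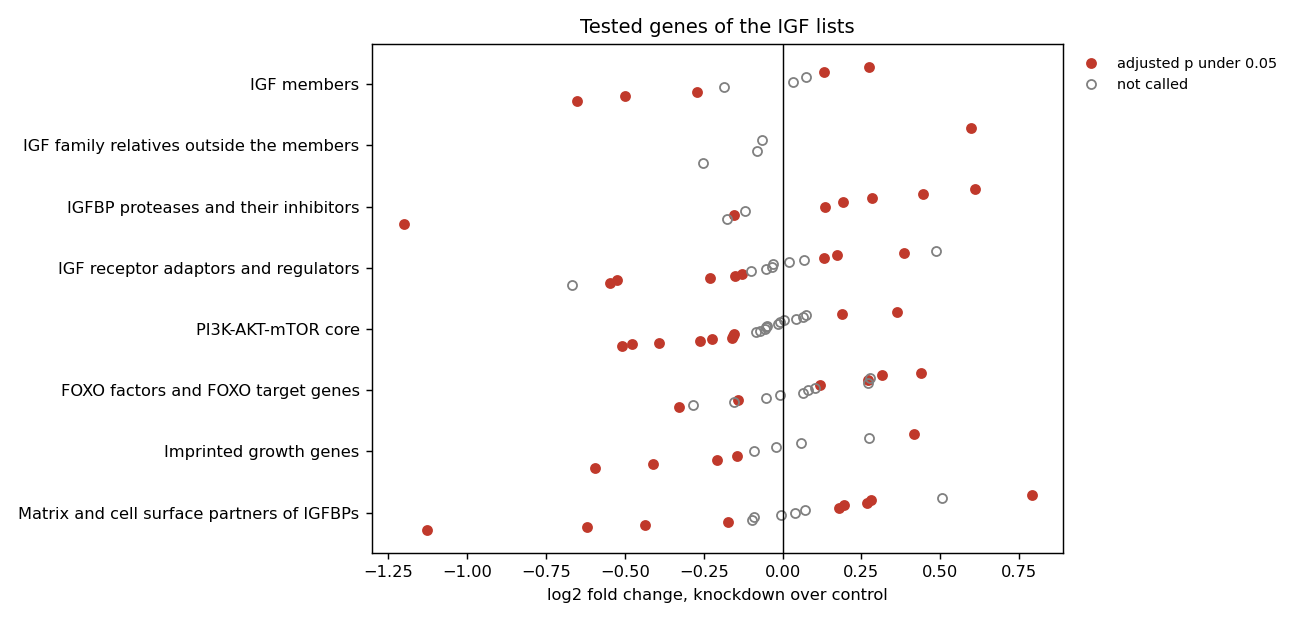
Log2 fold change (knockdown over control) of every tested gene of the IGF system and of the 7 related lists, with filled points for genes at an edgeR adjusted p under 0.05. Each list holds called genes, and every list but the relatives, where INS-IGF2 is the 1 called gene, holds them on both sides of 0.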

How the data were processed

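RNA from 3 knockdown and 3 control samples of AF22, grouped by title, was sequenced from 700 ng of total RNA with a directional kit, per the labels. Per the submitters' processing notes, the build was hg38 and the tools were STAR 2.7.10a, Trim Galore 0.6.6 and bedtools. How reads were counted, with which strand setting and annotation, is not given in the sources used here. Whole-number read counts per gene symbol, not normalized, were deposited by the authors as 1 table per sample.

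The filterByExpr function (edgeR 4.0.16 under R 4.3.3) kept 13632 genes, and TMM factors scaled the libraries. The 2 groups were compared with edgeR's quasi-likelihood test and Benjamini-Hochberg adjustment over all tested genes and a threshold of 0.05. The SE is the log2 fold change over the square root of F, and intervals are 95%. The floor is 3 counts; floors cover counting error only. The fit was tested on simulated counts. Chi-square statistics between replicates were 1.23 to 1.994 per degree of freedom, above counting noise alone in every pair, and no libraries were merged, which does not show that the cultures were separate. Coordinates, exon lengths and 3′ UTRs (the longest per gene) come from GENCODE v29, in which 23900 of 26485 symbols (90.2%) were found, and promoters from RefSeq, which matched 8 of the 10 genes. Alternatives were other scalings and filters, DESeq2 1.42.0, limma-voom (limma 3.58.1), a replicate block, a 1.5-fold threshold, an adjusted p under 0.01 and leaving out each library. Python 3.11.15 drew the figures.

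The text names the 10 genes, COMMD3 and BMI1, INS, INS-IGF2, IGFBP1 and IGFBPL1, up to 4 called genes per list, those of smallest adjusted p, and the 3 genes most like IGFBP4, and part of this set is printed; 1 gene of it is not reported here. INSR, H19, PAPPA and markers are named beyond that rule. The genes, the lists and the 3′ UTR word were chosen with earlier results of these data known.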

Additional observations from a re-analysis of the deposited data

How the results depend on the processing

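Of the 8 tested genes, 3 were called lower and 2 higher. The 3 lower calls held under every alternative but the edgeR test against a 1.5-fold threshold, which gave 0 lower and 0 higher (1 member at an unadjusted p under 0.05). The higher count was 1 with DESeq2 and at an adjusted p under 0.01, the gene lost being IGF2R in both, and 1 to 2 when 1 library was left out; the lower count was then 3 throughout. Over the 16 alternatives the log2 fold change was −0.68 to −0.61 for IGFBP4, −0.56 to −0.44 for IGFBP5, −0.30 to −0.24 for IGF1R, 0.26 to 0.30 for IGFBP2 and 0.09 to 0.18 for IGF2R. With 1 library left out, the values of 3 genes that were not called ran across 0: INSR from −0.13 to 0.003849 (without knockdown replicate 3), IGFBP3 from −0.0001377 (without knockdown replicate 3) to 0.067, and IGFBP6 from −0.49 (without control replicate 3) to 0.042, with 0.022 without control replicate 1. IGFBP6 also came to 0.012 with limma-voom. The cause was not tested. Genes called in all numbered 4545, against 2877 with DESeq2 (2876 shared), 2943 at an adjusted p under 0.01, 164 at the 1.5-fold threshold and 3608 to 4297 with 1 library left out, lowest without knockdown replicate 1. In the 7 lists 46 genes were called, against 34 with DESeq2 and 33 at an adjusted p under 0.01. The list count was 1 at the 1.5-fold threshold and 36 to 47 with 1 library left out. Over 736 values of 46 other named genes, 669 kept direction and call, 66 lost the call and 1 (INSR) changed sign. Same-numbered libraries deviated together with correlations of 0.127, 0.022 and 0.149, and differently numbered ones with −0.197 to 0.1. The main fit did not take the numbers as pairs, and these values do not settle whether they are. A replicate block gave 5248 genes called, against 4545 without it, and left the counts of members at 3 lower and 2 higher. Scalings moved the median of all genes to at most 0.022. Depth limits IGF1, IGF2, IGFBP6 and IGFBP7, whose counts were 35 or fewer per library.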
